A study of Mus musculus with 6 samples.

Results

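Glutathione S-transferases were followed in liver RNA of C57BL/6 mice kept on a ketogenic diet and of mice kept on chow. The 10 genes were Gsta2, Gsta3 and Gsta4 of the alpha class, Gstm1, Gstm2, Gstm3 and Gstm4 of the mu class, Gstp1 of the pi class, and Gstt1 and Gstt3 of the theta class. They were taken as every probe set (a group of short probes for 1 transcript) whose platform annotation names exactly 1 of these genes. This gave 15 probe sets for 10 of the 18193 genes that the array names with a single symbol, and all 15 passed the filter on low signals. The ketogenic group ate diet F3666 (Bio-Serv), which is rich in fat and poor in carbohydrate, and the chow group ate Labdiet 5008 (Pharmserv). Mice of both groups were 8 weeks old at the start, spent 6 weeks on their diet, and had their livers taken in the morning while feeding freely. Sex was not stated. Each diet has 3 one-colour Affymetrix arrays, made with RNA from 2 to 3 mice of each diet, and the labels do not say whether RNA was pooled. The p-values therefore measure the spread between these arrays, which may be technical.

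These enzymes join the tripeptide glutathione to reactive electrophiles, among them drug metabolites, epoxides and aldehydes from oxidised lipids, and the conjugate is then exported and cut down to a mercapturate. The liver is rich in them, and each class prefers other substrates. Many of their genes are induced through NRF2, a transcription factor of the oxidative stress response that binds the antioxidant response element, and through the xenobiotic receptors CAR and PXR. Only RNA was measured here, not enzyme.

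The tissue label fits its markers: Alb, which encodes albumin, had signals of 7885 to 8070 on ketogenic and 7780 to 8417 on chow arrays. Array level overlapped between the diets, with a 2% trimmed mean signal of 45.8 to 61.0 on ketogenic and 39.9 to 53.5 on chow arrays. Hybridization controls, RNA added in known amount, averaged 499.5 ± 18.4 on ketogenic and 641.7 ± 8.53 on chow arrays (SD, n = 3 each), without overlap. Actin's ratio of 3' to 5' signal, which is higher where RNA is degraded, was 1.59 ± 0.0820 on ketogenic and 2.08 ± 0.107 on chow arrays (SD, n = 3 each), also without overlap. The hybridization control and actin differences each had an exact permutation p = 0.1, the smallest that 3 against 3 arrays allow. The same ratio of Gapdh overlapped between the diets, at 0.793 ± 0.0187 on ketogenic and 0.839 ± 0.115 on chow arrays (SD, n = 3 each, exact permutation p = 0.9). The part of these control differences in the transferase results was not tested. The median log2 change of all kept probe sets was 0.22 as deposited and -0.01, 0.11, 0.01 and 0.58 after quantile normalization, scaling to a common median, to a common trimmed mean and to the hybridization controls. For the 4 called probe sets the range over these 4 other scalings is given beside the change.

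On the ketogenic diet, 3 of the 15 probe sets rose and 1 fell in limma's test with Benjamini-Hochberg adjustment over all 22515 kept probe sets at a threshold of 0.05. Over all kept probe sets 4.08% rose and 0.564% fell, 4.64% in all. The rises were both probe sets of Gstm3 and that of Gsta4, and the fall was that of Gstt3. The count of rises was 0 without ketogenic array 3, 1 without ketogenic array 2, and 2 without chow array 2 or ketogenic array 1. The fall was lost when chow array 1, chow array 2, ketogenic array 2 or ketogenic array 3 was left out. Signals of 7 of the 15 probe sets were higher on every ketogenic array than on any chow array and those of 2 were lower, where 21.6% and 5.06% of all kept probe sets, 26.7% together, were so separated. The median log2 change (ketogenic minus chow, as for every log2 change below) of the 15 was 0.33, against 0.22 for all kept probe sets. The smallest log2 change called anywhere in the table was 0.97 in size. A smaller change that was not called is thus no evidence of equal RNA.

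**Figure D1:**
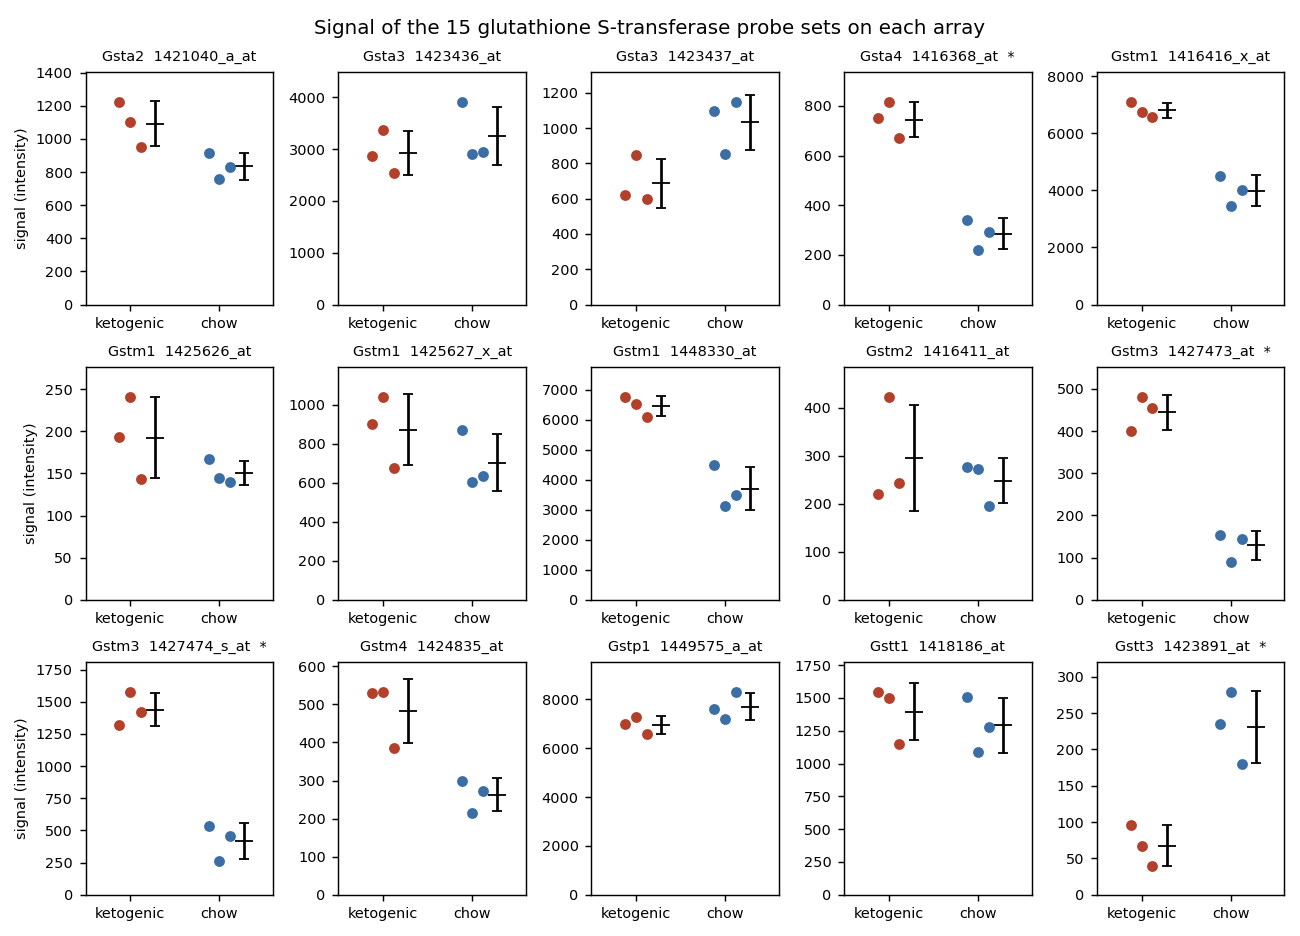
Signal (linear intensity, axes from 0) of the 15 probe sets on the 3 ketogenic (red, left) and 3 chow (blue, right) arrays of each panel, with the mean and SD of each diet as black bars and an asterisk on the 4 probe sets past the threshold. Both Gstm3 panels and the Gsta4 panel show all ketogenic arrays above all chow arrays, the Gstt3 panel shows them all below, and those of Gstp1, Gstt1 and Gstm2 overlap.

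Among the mu class enzymes, Gstm3 showed the largest rise of the 10 genes. Its RefSeq promoter is shown because both of its probe sets rose. It is printed with that of Gstm1, the brightest mu class gene, as the 250 bases before the annotated start in build GRCm38.p6, 5′ to 3′ along the gene. For Gstm1, which has 2 annotated starts in the table, the downstream one was taken. Capitals mark matches, on either strand, to the letters TATAAA and CCAAT.
Gstm3, chr3:107969175-107969424, - strand: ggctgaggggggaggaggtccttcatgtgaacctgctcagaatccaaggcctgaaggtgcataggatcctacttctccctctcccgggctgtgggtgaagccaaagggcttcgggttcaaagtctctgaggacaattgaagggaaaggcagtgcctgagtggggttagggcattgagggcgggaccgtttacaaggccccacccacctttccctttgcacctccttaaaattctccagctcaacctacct
Gstm1, chr3:108017819-108018068, - strand: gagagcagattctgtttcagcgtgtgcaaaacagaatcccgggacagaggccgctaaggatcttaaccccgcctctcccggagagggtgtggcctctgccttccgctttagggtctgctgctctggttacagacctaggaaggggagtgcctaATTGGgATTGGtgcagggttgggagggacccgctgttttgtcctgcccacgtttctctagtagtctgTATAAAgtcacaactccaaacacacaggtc
The Gstm1 window held TATAAA at -30 to -25 (bases counted back from the start) and 2 matches to CCAAT, at -97 to -93 and -91 to -87, and the Gstm3 window held neither motif. The window of the other Gstm1 start held no TATAAA and 1 CCAAT, at -206 to -202. Over 32851 such windows of the table, TATAAA occurred in 12.4% and CCAAT in 33.8%.

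The Gstm3 probe set 1427473_at had signals of 399.3, 479.9 and 455.3 on ketogenic arrays 1, 2 and 3, and of 154.4, 89.4 and 143.0 on chow arrays 1, 2 and 3. The lowest ketogenic array lay well above the highest chow array, and chow array 2 was the lowest of all. The log2 change was 1.82 ± 0.29 (SE), a 3.54-fold higher signal with a 95% confidence interval of 2.25 to 5.55 and adjusted p = 0.0125. Over the 4 other scalings the log2 change was 1.57 to 2.18.

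The other Gstm3 probe set, 1427474_s_at, is brighter, and its suffix marks probes that can bind several transcripts. Its signals were 1320, 1572.5 and 1423.7 on ketogenic and 530.7, 261.4 and 458.9 on chow arrays. The diets again did not overlap, and the same chow array was lowest. Its log2 change was 1.85 ± 0.31 (SE), 3.59-fold, with adjusted p = 0.0162, and 1.63 to 2.21 over the 4 other scalings. The difference between both probe sets within an array was -1.69 ± 0.0431 on ketogenic and -1.67 ± 0.117 on chow arrays (log2, SD, n = 3 each), so the pair moved together to within 0.02 on the log2 scale. The call of 1427473_at was lost without ketogenic array 3 (adjusted p = 0.0556), and that of 1427474_s_at without ketogenic array 2 or 3 (0.0554 and 0.0639).

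Gstm1, the main mu class transferase of liver, is covered by 4 probe sets, which fell into a pair with a larger and a pair with a smaller difference. Of these, 1416416_x_at and 1425627_x_at carry a suffix that marks probes which can bind other transcripts. The part of such binding in their signals was not tested. The probe set 1416416_x_at had signals of 7081.6, 6757.1 and 6566.5 on ketogenic and of 4507.9, 3434.4 and 4001.7 on chow arrays. On 1448330_at the signals were 6747.9, 6514.2 and 6086.6 on ketogenic and 4502.9, 3127.4 and 3481.6 on chow arrays. In both, every ketogenic array lay above every chow array. The log2 changes were 0.78 ± 0.24 and 0.82 ± 0.25 (SE), or 1.72-fold (1.18 to 2.51) and 1.76-fold (1.18 to 2.62, 95% confidence intervals), with adjusted p = 0.11 and 0.111. Neither passed the threshold as deposited. Both passed with quantile normalization (0.0346 and 0.0411), with hybridization control scaling (0.0141 and 0.0149), with 16 added before the log2 step (0.0187 and 0.0167), with a stricter filter (0.0362 and 0.0315) and with a trended robust prior (0.00263 and 0.00318).

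The other Gstm1 pair is annotated to another transcript record than the first pair. The probe set 1425626_at had signals of 193.6, 240.4 and 143.6 on ketogenic and 166.7, 144.5 and 139.9 on chow arrays, and 1425627_x_at had 899.5, 1037.6 and 676.4 on ketogenic and 870.8, 601.9 and 635.2 on chow arrays. Here the diets overlapped, with ketogenic array 3 within the chow range. The log2 changes were 0.33 and 0.31 with adjusted p = 0.539 and 0.576. Within arrays, 1416416_x_at exceeded 1425627_x_at by 2.98, 2.70 and 3.28 on ketogenic and by 2.37, 2.51 and 2.66 on chow arrays (log2). That within-array difference, which multiplying an array by a constant leaves as it is, was 0.47 larger on the ketogenic diet and did not overlap between the diets (exact permutation p = 0.1, adjusted p = 0.164 over 18 such pairs). Against 1425626_at the shift was 0.45 and the diets overlapped (exact permutation p = 0.2, adjusted p = 0.277). The mean of the 4 probe sets had a log2 change of 0.56 (adjusted p = 0.234).

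Gstm4, another mu class gene, had signals of 530.6, 531.4 and 385.5 on ketogenic and of 299.6, 215.8 and 273.0 on chow arrays. All ketogenic arrays were above all chow arrays, with ketogenic array 3 the nearest to them. Its log2 change of 0.87 ± 0.27 (SE), or 1.83-fold (95% confidence interval 1.2 to 2.79), did not pass the threshold (adjusted p = 0.108). It passed with hybridization control scaling (0.015), with 16 added before the log2 step (0.0168), with a stricter filter (0.0245) and with a trended robust prior (0.026).

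Gstm2 had signals of 219.1, 421.3 and 243.3 on ketogenic and of 276.8, 272.6 and 194.9 on chow arrays. Only ketogenic array 2 lay outside the chow range. Its log2 change was 0.20 with a 95% confidence interval of -0.53 to 0.93 (adjusted p = 0.759), and it turned to -0.02 with quantile normalization, to -0.01 with a common trimmed mean and to -0.09 without ketogenic array 2. The genes Gstm1, Gstm2, Gstm3 and Gstm4 are all on chromosome 3.

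Within single arrays, the signal of Gstm3 relative to each other mu class gene was higher on every ketogenic than on any chow array. The log2 signal of Gstm3 (1427474_s_at) minus that of Gstm4 was 1.31, 1.57 and 1.88 on ketogenic and 0.82, 0.28 and 0.75 on chow arrays, a shift of 0.97 without overlap. For Gstm1 (1416416_x_at) minus Gstm3, the difference was 2.42, 2.10 and 2.21 on ketogenic and 3.09, 3.72 and 3.12 on chow arrays. This is a shift of -1.06, again without overlap. Between Gstm1 and Gstm4 the shift was -0.09, and the diets overlapped (exact permutation p = 0.5). Gstm3 against Gstm4 and against Gstm1 each had an exact permutation p = 0.1 and adjusted p = 0.164, so neither passed a threshold of 0.05, which 3 against 3 arrays cannot reach.

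**Figure D2:**
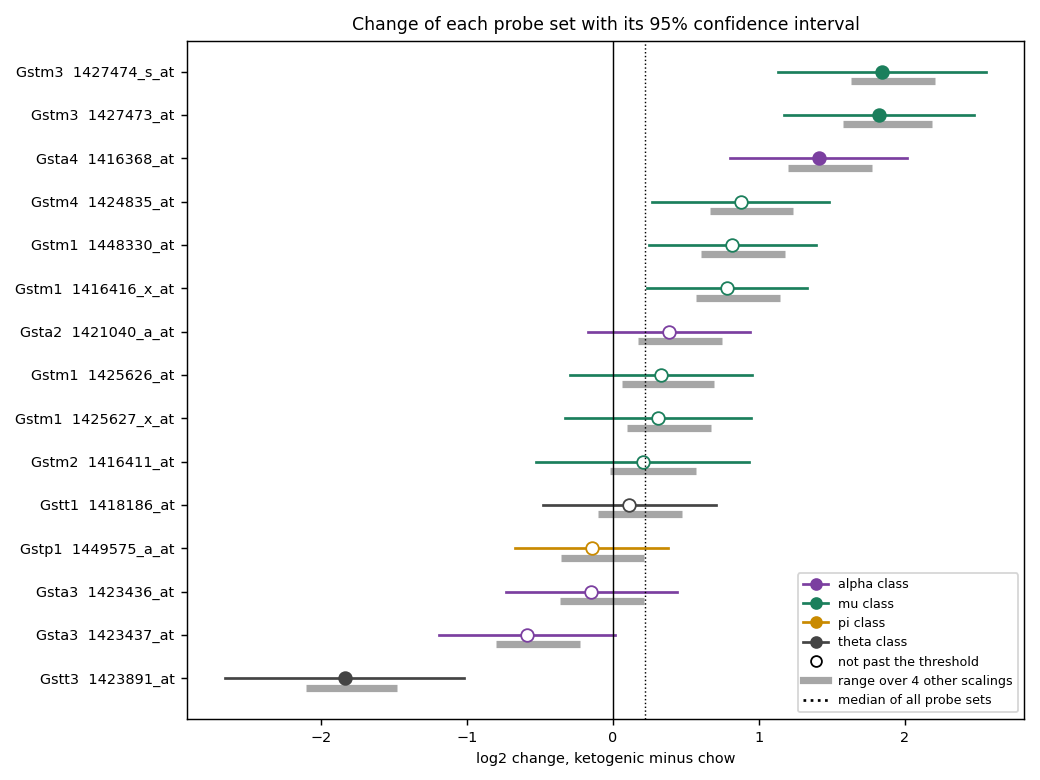
Log2 change (ketogenic minus chow) of each probe set as a point with its unadjusted 95% confidence interval, coloured by class and filled where the adjusted p was under 0.05. Grey bars give the range over 4 other scalings and the dotted line the median of all kept probe sets, 0.22; both Gstm3 probe sets and Gsta4 lie to the right and Gstt3 to the left under every scaling.

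Of the alpha class, Gsta4 rose. The enzyme it encodes is known for conjugating hydroxynonenal, a reactive aldehyde formed when polyunsaturated fats are oxidised. Its signals were 749.9, 814.3 and 670.4 on ketogenic and 341.6, 217.8 and 293.2 on chow arrays. The lowest ketogenic signal was well above the highest chow signal. The log2 change was 1.41 ± 0.27 (SE), 2.66-fold with a 95% confidence interval of 1.75 to 4.04 and adjusted p = 0.0237, and 1.2 to 1.77 over the 4 other scalings. The call was lost without chow array 2 (adjusted p = 0.0678) and without ketogenic array 1, 2 or 3 (0.0816, 0.0781 and 0.065), while the log2 change stayed between 1.23 and 1.55.

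Gsta2, an alpha class transferase inducible by xenobiotics, had signals of 1221.3, 1099.9 and 950.1 on ketogenic and of 916.2, 755.9 and 828.7 on chow arrays. The diets did not overlap, but the gap was narrow. The log2 change of 0.38 ± 0.24 (SE), 1.31-fold with a 95% confidence interval of 0.89 to 1.91, did not pass (adjusted p = 0.417), and it passed only with hybridization control scaling (0.0453). A further probe set that the annotation gives to several alpha class genes, Gsta2 among them, was left out by the rule.

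Gsta3, which in mice detoxifies the epoxide of aflatoxin, is covered by 2 probe sets. On the brighter, 1423436_at, signals were 2861, 3369 and 2543.9 on ketogenic and 3903.1, 2912.8 and 2946.1 on chow arrays, and the diets overlapped. On 1423437_at they were 619.5, 848.5 and 598.0 on ketogenic and 1095.2, 855.3 and 1146.4 on chow arrays, with ketogenic array 2 just under chow array 2. The log2 changes were -0.15 (adjusted p = 0.781) and -0.59 (95% confidence interval -1.2 to 0.01, adjusted p = 0.261). With hybridization control scaling the first became 0.21. Within arrays the brighter exceeded the other by 2.10 ± 0.109 on ketogenic and 1.65 ± 0.256 on chow arrays (log2, SD, n = 3 each), without overlap (exact permutation p = 0.1, adjusted p = 0.164).

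Relative to Gsta4 on the same array, the other alpha class genes were lower on every ketogenic than on any chow array. The log2 signal of Gsta3 (1423436_at) minus that of Gsta4 was 1.93, 2.05 and 1.92 on ketogenic and 3.51, 3.74 and 3.33 on chow arrays. The shift of -1.56 was several times the spread within either diet (SD 0.0699 on ketogenic, 0.207 on chow arrays) and is left as it is by multiplying an array by a constant. Gsta2 minus Gsta4 shifted by -1.03 in the same way, and both had the smallest possible exact permutation p = 0.1 (adjusted p = 0.164).

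**Figure D3:**
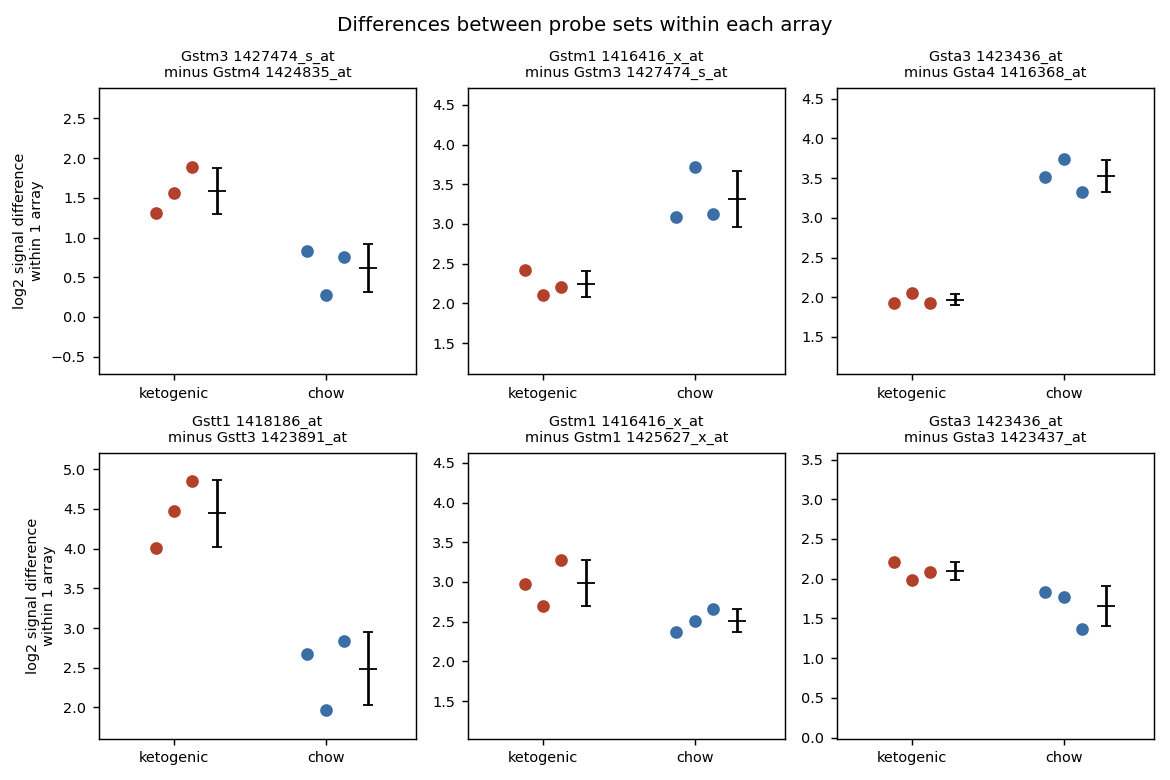
Difference in log2 signal between pairs of probe sets on each ketogenic (red, left) and chow (blue, right) array, with the mean and SD of each diet as black bars. All 6 pairs shown were picked because their diets do not overlap, and every panel spans the same length of log2 axis; the widest separation is that of Gstt1 and Gstt3, at 4.44 on ketogenic and 2.49 on chow arrays.

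The theta class genes Gstt1 and Gstt3 both lie on chromosome 10. Theta class transferases are known for acting on small halogenated compounds. Gstt3 had signals of 96.1, 67.2 and 39.8 on ketogenic and of 235.5, 278.5 and 180.0 on chow arrays. The highest ketogenic array was below the lowest chow array, and all 6 signals lay above the background of 10.8 set by bacterial control probe sets. The log2 change was -1.84 ± 0.36 (SE), so that the signal was 3.58-fold lower on the ketogenic diet, with adjusted p = 0.0264. Over the 4 other scalings it was -2.10 to -1.48. The call was lost without chow array 1 or 2 (adjusted p = 0.0592 and 0.0602) and without ketogenic array 2 or 3 (0.0693 and 0.0732).

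Gstt1 had signals of 1541.5, 1497.7 and 1145.4 on ketogenic and of 1503.7, 1086.7 and 1281.1 on chow arrays. The diets overlapped widely, and the log2 change was 0.11 with a 95% confidence interval of -0.48 to 0.71 (adjusted p = 0.841). It turned to -0.10 with a common trimmed mean and to -0.01 without chow array 2. Gstt1 minus Gstt3 within arrays was 4.0, 4.48 and 4.85 on ketogenic and 2.67, 1.96 and 2.83 on chow arrays (log2), a shift of 1.95 that did not overlap (exact permutation p = 0.1, adjusted p = 0.164).

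Gstp1, the pi class enzyme, which is abundant in the liver of male mice, had signals of 6998.8, 7266.8 and 6566.5 on ketogenic and of 7598.7, 7205.6 and 8278 on chow arrays. Ketogenic array 2 lay just above chow array 2, so the diets overlapped. The log2 change was -0.15 ± 0.23 (SE), with a 95% confidence interval of -0.67 to 0.38 and adjusted p = 0.759, and it turned to 0.03 with quantile normalization and to 0.22 with hybridization control scaling. The highest signal in the table was 10485.9. Like Gstm1 on 1416416_x_at and 1448330_at, with signals up to 7081.6 and 6747.9, this probe set thus worked in the upper part of the arrays' range. Its suffix marks probes that can bind several transcripts of the annotated gene, and near-identical pi class genes may share them.

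The promoters of Gstt3, which fell, and of Gstp1, whose signals overlapped, are printed in the same way to set them beside letters of the antioxidant response element, TGACNNNGC and TGAGNNNGC, and of the AP-1 site, TGANTCA. Capitals mark matches to these, to TATAAA and to CCAAT, on either strand. For Gstt3 the downstream of 2 annotated starts was taken.
Gstt3, chr10:75781415-75781664, - strand: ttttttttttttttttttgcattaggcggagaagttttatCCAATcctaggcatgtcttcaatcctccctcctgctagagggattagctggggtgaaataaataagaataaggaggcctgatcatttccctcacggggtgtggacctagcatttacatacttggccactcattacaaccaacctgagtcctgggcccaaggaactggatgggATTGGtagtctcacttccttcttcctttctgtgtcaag
Gstp1, chr19:4037913-4038162, - strand: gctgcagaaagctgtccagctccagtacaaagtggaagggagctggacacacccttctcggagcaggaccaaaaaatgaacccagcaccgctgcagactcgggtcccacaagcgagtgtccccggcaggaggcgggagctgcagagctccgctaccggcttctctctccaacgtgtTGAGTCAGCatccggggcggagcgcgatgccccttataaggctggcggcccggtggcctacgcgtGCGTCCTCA
The Gstp1 window held TGAGTCAGC at -74 to -66, whose first 7 bases are also the AP-1 match, and GCGTCCTCA at -9 to -1, which reads TGAGNNNGC on the other strand. The Gstt3 window held CCAAT letters at -210 to -206 and -38 to -34. Of the 10 genes, 9 had a window in the table, and Gsta4 had none. TGACNNNGC was found in 1 of the 9, Gsta3, and TGAGNNNGC in 2, Gstp1 and Gstt1, against 10.2% and 14.4% of all windows. TGANTCA was found in 1, Gstp1, against 6.75% of all windows. Gstm3, Gstm1 and Gstm4 had no match to these 3 motifs in their windows, which says only that these letters are not in those 250 bases.

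Among 12 tested glutathione transferases outside the 10 genes, 1 rose and 1 fell, where 4.74% and 0.615% of all 11866 genes, each by its brightest kept probe set, did so, 5.35% in all. Mgst3, a microsomal transferase that also reduces lipid peroxides, had signals of 441.9, 567.3 and 494.6 on ketogenic and 151.9, 104.3 and 120.6 on chow arrays. Its log2 change was 2.01 ± 0.26 (SE) with adjusted p = 0.00656, and the call was kept when any 1 array was left out but lost without the filter on dim probe sets (0.057). Gstm7, of the mu class, had signals of 107, 114 and 89 on ketogenic and 222.5, 199 and 226.9 on chow arrays, with a log2 change of -1.07 and adjusted p = 0.0426. Leaving out whichever array ended that call (adjusted p = 0.0782 to 0.144). The median log2 change of these 12 was 0.01, against 0.23 for all genes.

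Of 15 tested genes of glutathione synthesis and recycling, 1 rose and 0 fell in limma's test, against 4.74% and 0.615% of all genes, with 5 and 1 at an unadjusted p under 0.05. With hybridization control scaling 7 were higher, with a common trimmed mean 2 were lower, and without the filter on dim probe sets the counts were 0 and 0. Gpx3, a secreted glutathione peroxidase, had signals of 95.9, 94.8 and 115.3 on ketogenic and 24.1, 42.6 and 30.1 on chow arrays, a log2 change of 1.69 with adjusted p = 0.0155. It did not pass without ketogenic array 3 (0.0646), with quantile normalization (0.0705), with a common trimmed mean (0.0526) and without the filter on dim probe sets (0.0945). Gclc, the rate-limiting enzyme of glutathione synthesis, was picked after its values were seen. Its signals were 2401.4, 3036 and 2624.2 on ketogenic and 1871.9, 671.5 and 1212.6 on chow arrays, with a log2 change of 1.22 and adjusted p = 0.111. It passed with hybridization control scaling (0.0258), with the floor at background (0.0391), with 16 added before the log2 step (0.00652), with a stricter filter (0.00921), with a trended robust prior (0.042) and without chow array 1 (0.0462). The median log2 change of the list was -0.01.

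A list of conjugate export, mercapturate and glutathione breakdown genes had 11 tested genes. Of these 3 rose and 0 fell in limma's test, against the same 4.74% and 0.615% of all genes, with 5 and 1 at an unadjusted p under 0.05. The count of rises was 7 with hybridization control scaling and 1 without the filter on dim probe sets. The exporter Abcc4 had signals of 62.5, 91.1 and 63.8 on ketogenic and 12.2, 11.4 and 12.9 on chow arrays, a log2 change of 2.55 with adjusted p = 0.00211. The exporter Abcc1 was at least 2.68-fold higher, since its chow signals of 5.5, 4.1 and 13.3 were on average under the background, against 31.9, 30.6 and 30.7 on ketogenic arrays (adjusted p = 0.0228). Abcc1, counted among the 3 that rose, passed the filter on dim probe sets through these ketogenic signals. Its call was lost without chow array 1 or any 1 ketogenic array (0.0525 to 0.0843), and with quantile, common median and common trimmed mean scaling (0.0693, 0.0511 and 0.0738) and without the filter on dim probe sets (0.138). Chac1, which degrades glutathione, had signals of 93.4, 128.5 and 123.1 on ketogenic and 34.9, 26.4 and 30.4 on chow arrays, with a log2 change of 1.91 and adjusted p = 0.0075 (0.0607 without the filter on dim probe sets). The median log2 change of this list was 0.57.

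None of 11 tested regulators of transferase genes passed the threshold in limma (2 higher and 0 lower at an unadjusted p under 0.05), and with hybridization control scaling or with 16 added before the log2 step 3 did. Without chow array 1 the count that passed was 2, and without chow array 2 or 3 it was 1. Without the filter on dim probe sets it was 1, and Maff lay under that filter. The 2 at an unadjusted p under 0.05 were Mafk (log2 change 1.53, adjusted p = 0.0902 in limma) and Nfe2l2. The brightest regulator, Rxra, the partner of several nuclear receptors, had a log2 change of 0.17 (adjusted p = 0.772). Nfe2l2, which encodes NRF2 and was picked after its values were seen, had signals of 500.7, 563.8 and 458.3 on ketogenic and 316.3, 301.0 and 242.5 on chow arrays. The diets did not overlap, and its log2 change of 0.83 did not pass as deposited (adjusted p = 0.101). It passed with a common array median (0.0482), hybridization control scaling (0.0126), 16 added before the log2 step (0.0177), a stricter filter (0.0276) and a trended robust prior (0.026). It failed when any array was left out (0.113 to 0.286).

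**Figure D4:**
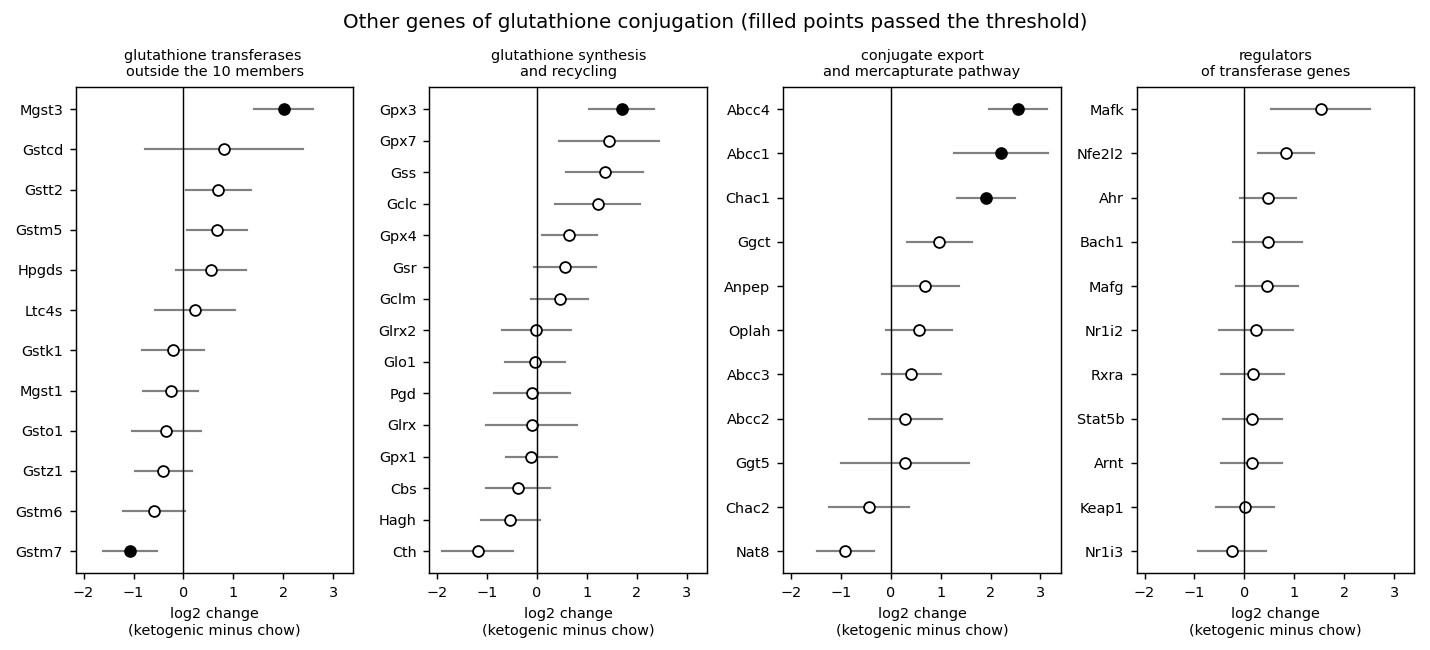
Log2 change (ketogenic minus chow) with its unadjusted 95% confidence interval for the tested genes of 4 lists, 1 panel each, with filled points past the threshold. Mgst3, Gpx3, Abcc4, Abcc1 and Chac1 lie to the right as filled points, Gstm7 to the left, and no regulator is filled.

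Markers of other liver cells moved with the diet beside these results, and in whole liver fewer cells of a type and less RNA per cell cannot be told apart. Over all 11866 genes, each by its brightest kept probe set, 4.74% rose and 0.615% fell. Of 10 macrophage markers 7 rose, with a summed signal of 3437 to 5450 on ketogenic and 1055 to 1317 on chow arrays (6 or fewer rose when 1 array was left out, and 4 without ketogenic array 1 or 2). Of 9 stellate cell markers 6 rose, with sums of 3172 to 4740 on ketogenic and 1123 to 1449 on chow arrays (3 without ketogenic array 3, and 2 to 8 over the scalings). Col1a1, among those 6, had chow signals of 16.6, 2.8 and 18.4. It passed the filter through its ketogenic signals of 98.7, 112.5 and 181.8. None of 8 sinusoidal markers passed as deposited (5 higher at an unadjusted p under 0.05; 5 passed with hybridization control scaling, and 3 with 16 added, a stricter filter or a trended robust prior), with sums of 1201 to 1542 on ketogenic and 655.7 to 1031 on chow arrays. None of 4 tested cholangiocyte markers passed (1 higher at an unadjusted p under 0.05), with sums of 88.1 to 113.5 on ketogenic and 51.2 to 84.1 on chow arrays, and Krt7 and Cftr lay under the filter, as did the stellate cell marker Des. Anxa13, the cholangiocyte marker at an unadjusted p under 0.05, also passed the filter through its ketogenic signals.

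Of 8 general hepatocyte markers 2 fell, Cps1 and Tat (1 without ketogenic array 2, 0 without ketogenic array 3), against 0.615% of all genes. The sums of the 8 were 37808 to 43181 on ketogenic and 50206 to 53014 on chow arrays. The log2 changes of Cps1 and Tat were -1.82 and -2.03, and those of the others ran from -0.34 (Fgb) to -0.004 (Hnf4a). Of 8 periportal markers 2 fell, Arg1 and Hal (1 whichever array was left out, and 4 with a common trimmed mean), with sums of 5410 to 9497 on ketogenic and 12589 to 15568 on chow arrays. None of 10 pericentral markers passed (2 lower at an unadjusted p under 0.05), and their sums overlapped at 11990 to 16330 on ketogenic and 14246 to 17902 on chow arrays. Of 7 male-biased liver genes 6 fell (3 without chow array 1, chow array 3, ketogenic array 2 or ketogenic array 3). Hsd3b5, among those 6, had ketogenic signals of 0.8, 11.7 and 1.2. It passed the filter through its chow signals of 1128.4, 543.7 and 1178.1. The sums of the 7 were 3357 to 4316 on ketogenic and 8846 to 12267 on chow arrays. Of 3 tested female-biased genes 2 rose, Cyp2b9 and Cyp2b13, and Cyp17a1 went the other way (log2 change -1.98, adjusted p = 0.311 in limma). Cux2, Hao2 and Sult3a1 lay under the filter. The chow signals of Cyp2b13, 7.2, 2.6 and 9.4, lay under the background of 10.8. It passed the filter through its ketogenic signals of 51.9, 90.0 and 57.5. Without the filter on dim probe sets 2 macrophage and 0 stellate cell markers rose, 0 general hepatocyte and 0 periportal markers and 1 male-biased gene fell, and 1 female-biased gene rose. The part of cell makeup, lobular position and sex-biased expression in the transferase changes was not tested.

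The calls were set beside other ways of treating the values. Both Gstm3 probe sets, Gsta4 and Gstt3 passed under all 4 other scalings. Without the filter on dim probe sets none of the 15 passed (6 higher and 1 lower at an unadjusted p under 0.05), with adjusted p = 0.0844 and 0.104 for Gstm3, 0.111 for Gsta4 and 0.142 for Gstt3. With a trended robust prior 6 rose and 1 fell.

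**Figure D5:**
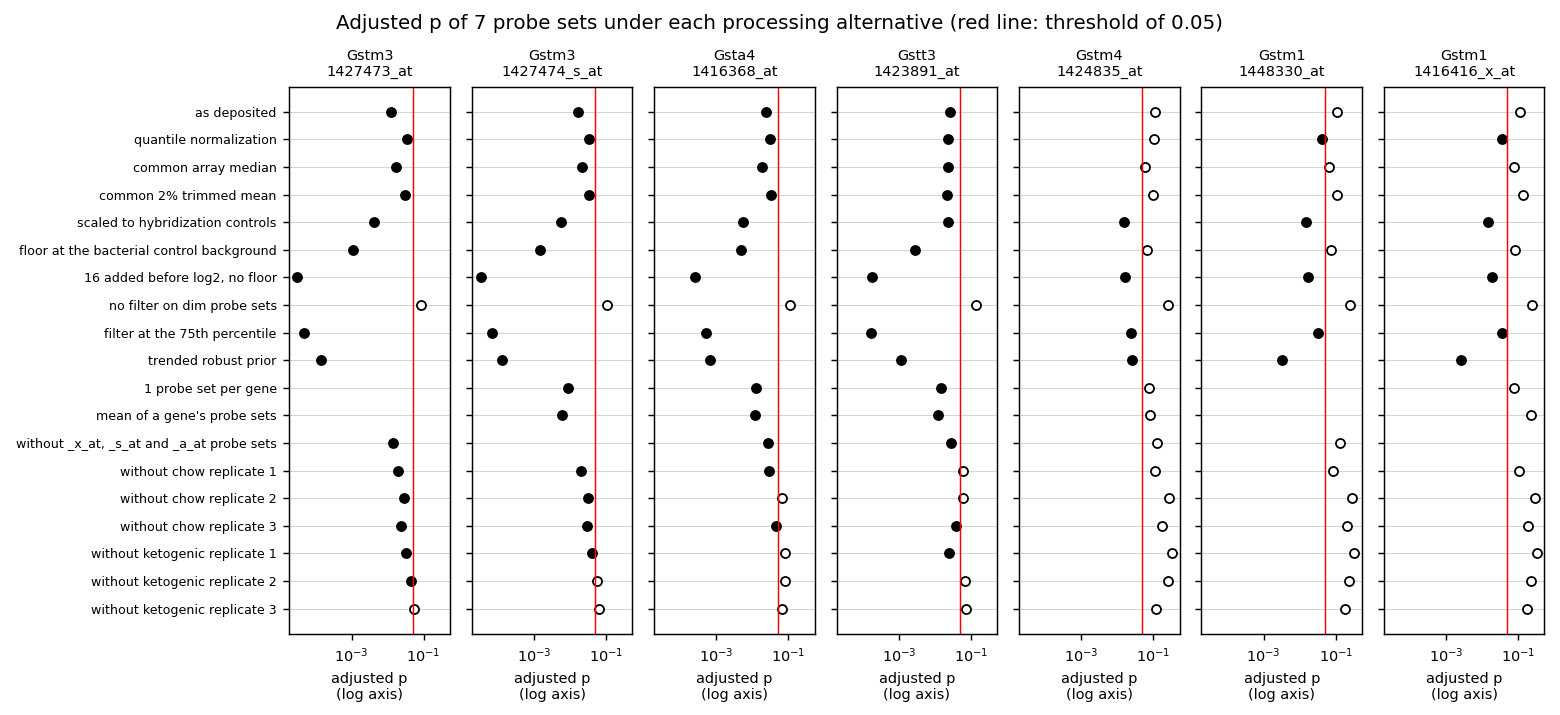
Adjusted p (log axis, limma with Benjamini-Hochberg adjustment) of the 4 called probe sets and of the 3 with the next smallest p, under the deposited values and each of 18 alternatives, with filled points under the threshold of 0.05 (red line). A row without a point is an alternative that leaves that probe set out; the Gstm1 and Gstm4 points cross the line only under some alternatives.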

How the data were processed

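Each array's deposited table gives 1 linear intensity a probe set, and the submitters' processing notes name GCOS and MAS5. For versions, settings and scaling target: not given in the sources used here. Precision is limited by the number of arrays.

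A floor of 1.1 was set (the 10th percentile of the table) before signals were put on the log2 scale. Probe sets with a mean log2 signal of at least 3.35, the median, were kept, without 64 controls, leaving 22515 of 45101. The diet contrast was fitted in limma 3.58.1 (R 4.3.3; lmFit, then eBayes; two-sided, Benjamini-Hochberg over all kept probe sets, threshold 0.05, 4 residual and 4.68 prior degrees of freedom). The fit was tried on simulated data in 10 draws with 200 changed probe sets each. This is fewer than the 1045 that passed in the data, and recovery with other numbers was not tried. Differences that were 2-fold were recovered in 0.5% of cases, whereas for 4-fold ones the rate was 42.7%. The false share was 5.05%. A probe set that did not pass can therefore still differ 2-fold between the diets. Single values per array had two-sided exact permutation tests (SciPy 1.17.1). Background was the mean log2 over arrays of the 95th percentile of 27 bacterial probe sets, none of them a hybridization control. Where 1 diet averaged under it, its signals were raised to it and the fold is given as at least that size.

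Every member probe set was described. Pathway lists were other transferases, synthesis and recycling, export and mercapturate with glutathione breakdown, and regulators. Of each, up to 4 genes past the threshold with the largest change, or else the brightest, were named. Marker lists covered hepatocytes, pericentral and periportal zones, cholangiocytes, macrophages, endothelium, stellate cells and sex-biased genes. Members and lists were chosen with earlier results of these data known, and within-array pairs and promoter motifs after the values were seen. Promoters came from RefSeq (GRCm38.p6). Replicates were numbered in order of deposition and pair nothing. The 18 alternatives covered scaling, floor, filter, prior, probe set choice and leaving out arrays.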

Additional observations from a re-analysis of the deposited data

How the results depend on the processing

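Over 18 alternatives, 255 values of the 15 transferase probe sets were recomputed. Of these 217 kept their direction and their side of the threshold, 15 newly passed it, 15 no longer passed it and 8 changed sign. Transferase probe sets called higher numbered 5 with quantile normalization, 7 with hybridization control scaling, 6 with 16 added before log2, with a filter at the 75th percentile and with a trended robust prior, and 0 without a filter, in place of 3. Those called lower numbered 0 without a filter, in place of 1. Leaving out 1 array gave 0 to 3 higher and 0 or 1 lower. All probe sets called numbered 1045 as deposited, 5113 with hybridization control scaling, 1942 with the floor at background, 2269 with 16 added, 178 without a filter, 1872 with the trended robust prior, 622 when cross-binding probe sets were dropped (fewer probe sets tested) and 310 to 1037 without 1 array. As deposited 918 were higher and 127 lower. With a common array median it was 1068 and 312, after equal trimmed means 788 and 403, after quantile normalization 646 and 355, and with hybridization controls 4985 and 128. The causes were not tested. Signs changed, none of them in a called value, for Gstm2 (log2 -0.0214 with quantile normalization, -0.00899 with equal trimmed means, -0.0856 to 0.386 when 1 array was left out), Gstt1 (-0.100 with equal trimmed means, -0.0053 to 0.248 when 1 array was left out), Gsta3 on 1423436_at (0.212 with hybridization controls), Gstp1 (0.0331 with quantile normalization, 0.215 with hybridization controls) and Rxra (-0.0206 with quantile normalization, -0.046 with equal trimmed means). No paired analysis was possible because the labels give no replicate numbers.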
